A study of Mus musculus with 12 samples.

Results

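*Myl4*, *Myl7*, *Sln*, *Bmp10*, *Dkk3*, *Kcnj3* and *Kcnj5* are genes known for transcripts that are more abundant in the atria than in the ventricles of the mouse heart. They were taken by symbol, with a rule that uses no measured value, and are 7 of the 19938 genes that the arrays measured under a single symbol. Each of the 7 had 1 probeset, the group of array probes that reads 1 transcript. In 12 adult hearts none of the 7 passed a test between genotypes after adjustment over all probesets. *Myl4*, *Myl7* and *Sln* rose and fell together over the 12 hearts. Their deviations from the means of the genotype groups also had positive r, which was not tested.

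The atria and the ventricles are built from cardiomyocytes that use partly different contractile proteins, calcium regulators and ion channels. *Myl4* and *Myl7* encode the atrial essential and regulatory myosin light chains, whose ventricular counterparts are encoded by *Myl3* and *Myl2*. Sarcolipin, from *Sln*, is a small membrane protein that inhibits the SERCA calcium pump. *Kcnj3* and *Kcnj5* encode the subunits of the potassium channel that acetylcholine opens through the muscarinic receptor *Chrm2*, which slows the heart under vagal tone. *Bmp10* encodes a secreted ligand of the bone morphogenetic protein family, made in the adult mouse mainly by myocytes of the right atrium, and *Dkk3* encodes a secreted glycoprotein of the Dickkopf family.

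Affymetrix gene ST arrays for the mouse were used to measure gene expression in total RNA of whole hearts from mice 8 weeks of age, 1 heart per array. There were 2 hearts with wild-type *Gata4* and *Gata6* that carried only the cre transgene (cre), 2 with *Gata4* alleles flanked by loxP sites and no cre (*Gata4* floxed) and 3 with the floxed *Gata4* alleles and cre (*Gata4*-deleted). There were likewise 2 *Gata6* floxed and 3 *Gata6*-deleted hearts. GATA-4 and GATA-6 are zinc finger transcription factors of the cardiomyocyte, and the comparisons asked which transcripts change when either is lost. The cre transgene is named as driven by the α-myosin heavy chain promoter in the sample labels and by the βMHC promoter in the study's methods, and in which chambers the genes were deleted was not measured here. The labels call the hearts biological replicates but do not say which share a litter or a day.

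The hearts read as heart tissue, and their array medians lay between 5.61 and 5.66 on the log2 scale. *Actc1*, the cardiac actin, read 13.53 to 13.68 and *Myl2* 13.11 to 13.27, while the lung markers *Sftpc* and *Scgb1a1* stayed at 3.98 to 4.58 and 2.57 to 3.01. Other lung markers were brighter, with *Ager* at 5.85 to 6.41 and *Sftpb* at 5.43 to 5.73, still far below the cardiac genes. The *Gata4* probeset differed by -0.05 (log2, SE 0.08) between *Gata4*-deleted and *Gata4* floxed hearts and the *Gata6* probeset by 0.23 (SE 0.12) between *Gata6*-deleted and *Gata6* floxed hearts (limma, adjusted p = 0.907 and 0.999). Whether these probesets cover the deleted parts was not tested. *Gata6* floxed heart 2 stood apart: 139 of 35557 probesets, 13 of them with a single gene symbol, read over 1 log2 unit higher there than in every other heart, against 1 to 12 in each of the others. Many of the 139 repeat each other: they held 56 different sets of values, and 11 read *Srsy*. Results that rest on it are given with and without it.

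The members covered the range of the array. On the log2 scale, *Myl4* averaged higher than 92.6% of all probesets, *Kcnj5* than 85.7%, *Myl7* than 82.6%, *Kcnj3* than 82.2%, *Dkk3* than 67.9%, *Sln* than 51.2% and *Bmp10* than 22.3%. Probesets differ in how strongly they bind, so these positions do not rank the transcripts. *Bmp10* lay above the array median in 1 heart and *Sln* in 6, whereas the other 5 members lay above it in all 12.

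Both deleted genes encode factors that bind GATA motifs, so the promoters of the members are shown where the sequence table held them. The 250 bases before the transcription start (RefSeq, mouse GRCm38.p6) were available for *Myl4*, *Myl7*, *Bmp10*, *Kcnj3* and *Kcnj5* and were searched on both strands for the letters AGATAA as well as AGATAG, and for the letters TGATAA as well as TGATAG. No matches overlapped. Printed 5′ to 3′ along the strand of the gene, with the matches in capitals, are *Myl4* (chr11:104550413-104550662, plus strand) and *Myl7* (chr11:5898783-5899032, minus strand), 2 of the 3 members that moved together below, and *Bmp10* (chr6:87428744-87428993, plus strand), the member with the most matches.
Myl4: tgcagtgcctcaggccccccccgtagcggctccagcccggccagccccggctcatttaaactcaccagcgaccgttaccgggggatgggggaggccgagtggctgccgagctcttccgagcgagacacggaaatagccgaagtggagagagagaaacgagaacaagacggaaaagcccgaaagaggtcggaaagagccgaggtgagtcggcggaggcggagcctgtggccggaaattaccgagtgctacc
Myl7: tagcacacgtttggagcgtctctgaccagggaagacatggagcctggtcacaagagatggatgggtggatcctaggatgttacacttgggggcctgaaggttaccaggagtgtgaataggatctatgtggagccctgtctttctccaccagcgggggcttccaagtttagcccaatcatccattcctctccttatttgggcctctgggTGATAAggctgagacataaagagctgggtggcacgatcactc
Bmp10: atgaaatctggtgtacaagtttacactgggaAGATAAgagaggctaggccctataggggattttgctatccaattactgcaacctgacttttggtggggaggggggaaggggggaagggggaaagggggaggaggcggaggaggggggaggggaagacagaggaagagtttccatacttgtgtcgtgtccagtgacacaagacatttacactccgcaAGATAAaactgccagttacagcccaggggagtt

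*Myl7* had 1 match, TGATAA, 42 bases before the start. *Bmp10* had 2, both AGATAA, at 219 and 33 bases before the start. No match lay in these windows of *Myl4*, *Kcnj3* and *Kcnj5*. The windows of *Myl4* and *Kcnj3* lie within the annotated extent of their genes, and that of *Kcnj5* overlaps the end of its gene. Any other transcription starts of these genes were not searched. At least 1 of the 4 motifs was present in 26.5% of the 32851 promoters in the table, so a match is a description of the letters and not a site.

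*Myl4*, the atrial essential light chain, was highest in the *Gata4* floxed hearts, at 9.77 and 9.64 (log2 signal). It read 9.71 and 9.04 in the *Gata6* floxed hearts, 9.06, 9.54 and 8.34 in the *Gata4*-deleted hearts, 9.60, 8.96 and 9.08 in the *Gata6*-deleted hearts and 8.71 and 8.93 in the cre hearts. Both *Gata4* floxed hearts lay above all 3 *Gata4*-deleted hearts, whereas *Gata6* floxed and *Gata6*-deleted hearts overlapped, and both cre hearts lay below all 4 floxed hearts. Within the *Gata4*-deleted group alone *Myl4* spanned 2.30-fold, and 1.59-fold between the 2 *Gata6* floxed hearts.

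*Myl7*, its regulatory partner in the atrial myosin, read 7.99 and 8.06 in *Gata4* floxed, 7.75, 8.22 and 7.003 in *Gata4*-deleted, 8.52 and 8.20 in *Gata6* floxed, 8.78, 7.71 and 7.93 in *Gata6*-deleted and 7.42 and 7.81 in cre hearts. Each deletion overlapped its floxed group. *Gata4*-deleted heart 3 held the lowest value of the 12 hearts for both light chains, and *Gata6*-deleted heart 1 the highest for *Myl7*. *Myl7* spanned 2.32-fold within the *Gata4*-deleted and 2.11-fold within the *Gata6*-deleted group.

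*Sln* was nearly equal in the *Gata4* floxed hearts, at 6.05 and 6.06, and in the cre hearts, at 5.40 and 5.45. It read 5.15, 5.80 and 5.41 in *Gata4*-deleted, 6.24 and 5.78 in *Gata6* floxed and 6.01, 5.42 and 5.57 in *Gata6*-deleted hearts. The order of the hearts resembled that of *Myl4*, with *Gata4*-deleted heart 2 above hearts 1 and 3 of its group and *Gata6*-deleted heart 1 above hearts 2 and 3.

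*Kcnj3*, the GIRK1 subunit, read 8.13 and 8.08 in *Gata4* floxed, 7.97, 7.97 and 7.54 in *Gata4*-deleted, 8.22 and 8.13 in *Gata6* floxed, 7.55, 7.82 and 7.61 in *Gata6*-deleted and 8.09 and 7.90 in cre hearts. All 4 floxed hearts lay above all 6 deleted hearts, a split that was noticed in these values and not tested, and the cre hearts spanned the gap between them. Over all probesets, 1.45% split these 6 from these 4 hearts in either direction, and *Kcnj3* was the 1 member of 7 that did.

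*Kcnj5*, the GIRK4 subunit that assembles with it, was the steadiest member. It read 8.20 and 8.34 in *Gata4* floxed, 8.23, 8.28 and 8.26 in *Gata4*-deleted, 8.19 and 8.63 in *Gata6* floxed, 8.18, 8.19 and 8.11 in *Gata6*-deleted and 8.23 and 8.14 in cre hearts. The value of 8.63 belonged to *Gata6* floxed heart 2, the array that stood apart, and the other 11 hearts lay within 8.11 to 8.34.

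*Bmp10* was near the low end of the array in all hearts but 1. *Gata6* floxed heart 1 read 5.76, and the next highest heart, *Gata6*-deleted heart 2, read 4.40, a gap of 1.36 that only 75 probesets (0.211%) exceeded. The other hearts read 4.17 and 4.01 in cre, 4.29 and 4.09 in *Gata4* floxed, 4.0, 4.22 and 3.86 in *Gata4*-deleted, 3.53 in the other *Gata6* floxed and 3.62 and 3.80 in the other *Gata6*-deleted hearts. The highest and the lowest of the 12 values were thus the 2 hearts of the *Gata6* floxed group.

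*Dkk3* read 6.98 and 6.88 in *Gata4* floxed, 6.58, 7.16 and 6.85 in *Gata4*-deleted, 6.94 and 6.72 in *Gata6* floxed, 6.88, 6.61 and 6.66 in *Gata6*-deleted and 6.74 and 6.68 in cre hearts. Its lowest and its highest heart were both *Gata4*-deleted, hearts 1 and 2. All group ranges but that of the cre hearts against the *Gata4* floxed hearts overlapped.

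**Figure D1:**
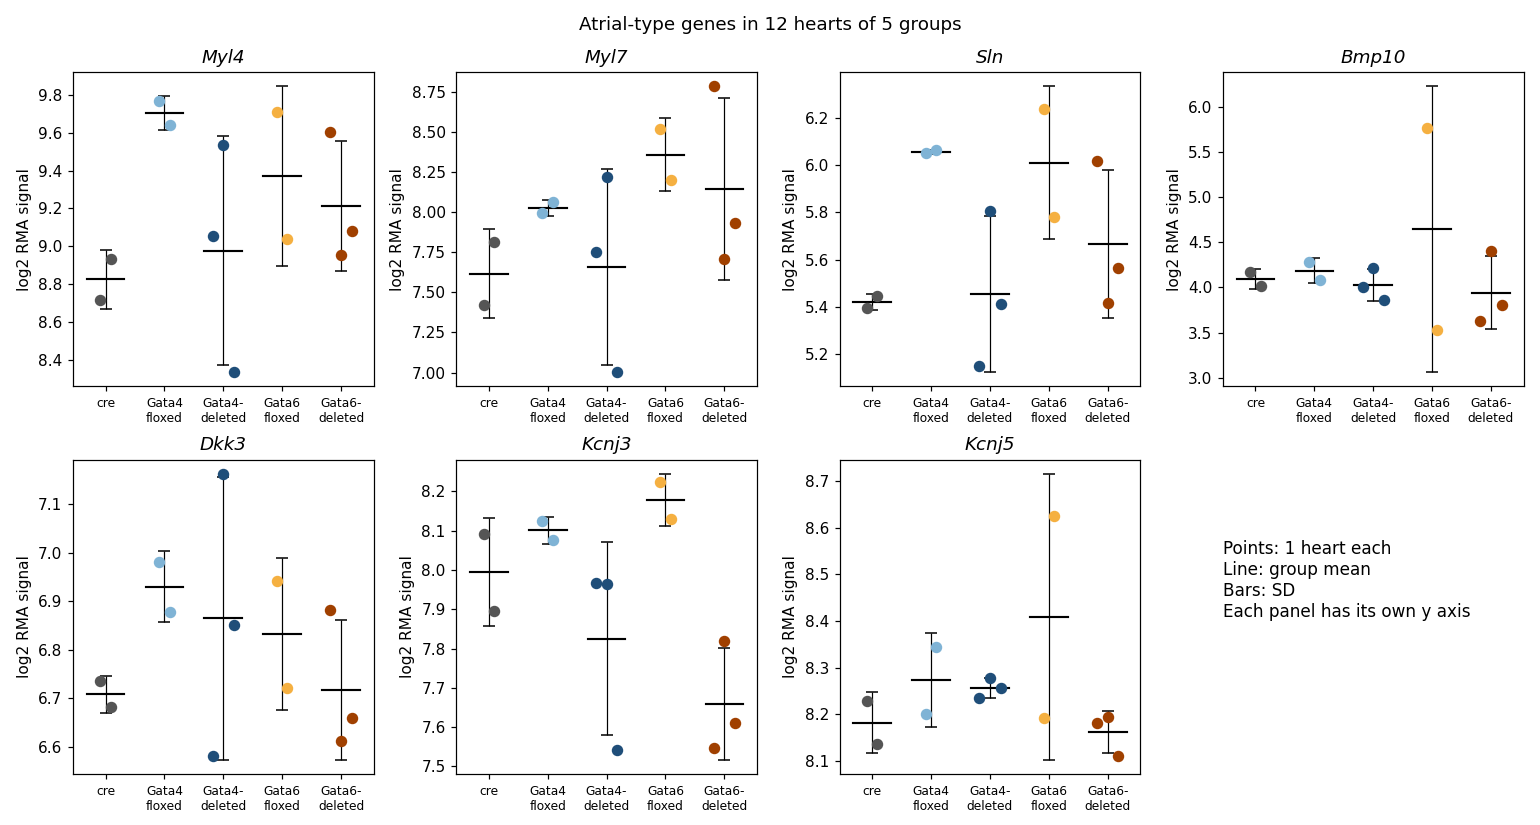
Log2 signal (y axis, own scale per panel) of each member in the 5 groups (x axis), with 1 point per heart, the group mean as a line and the SD as bars (n = 2 or 3). *Kcnj3* is lower in all 6 deleted than in all 4 floxed hearts, and *Bmp10* is near 4 in all but 1 *Gata6* floxed heart, at 5.76.

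The spread between hearts of 1 group differed widely among the members. The pooled SD within groups was 0.647 log2 units for *Bmp10*, 0.467 for *Myl7*, 0.418 for *Myl4*, 0.272 for *Sln*, 0.186 for *Dkk3*, 0.163 for *Kcnj3* and 0.127 for *Kcnj5*. *Bmp10*, *Myl7* and *Myl4* varied more than 98.6%, 94.9% and 92.8% of all probesets, and *Kcnj5* more than 45.1%. The probesets of the light chains were therefore among the more variable of the array between hearts of the same genotype, and the probeset of *Kcnj5* was not.

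Loss of *Gata4* was compared with the *Gata4* floxed hearts in a linear model over all probesets (limma, moderated test, two-sided, Benjamini-Hochberg over all 35557 probesets, threshold an adjusted p under 0.05). No member passed (0 of 7, where 0.183% of all probesets did), and 1 of 7, *Sln*, had an unadjusted p under 0.05 (0.0226), as did 9.42% of all probesets. *Myl4* differed by -0.73 (SE 0.33, 1.66-fold lower, adjusted p = 0.547), *Sln* by -0.60 (SE 0.22, adjusted p = 0.411) and *Kcnj3* by -0.28 (SE 0.14, adjusted p = 0.605). In these 3 of 7 members all deleted hearts lay below both floxed hearts, and 25.7% of all probesets did not overlap in one direction or the other. *Myl7* differed by -0.37 (SE 0.37), *Bmp10* by -0.16 (SE 0.51), *Dkk3* by -0.06 (SE 0.16) and *Kcnj5* by -0.02 (SE 0.12), with adjusted p from 0.834 to 0.983. The 95% intervals still allowed large changes, from -1.47 to 0.02 for *Myl4* and from -1.20 to 0.46 for *Myl7*, and were narrow only for *Kcnj5*, from -0.28 to 0.24. Without *Gata4*-deleted heart 3 the *Myl4* difference was -0.41, that of *Kcnj3* -0.13 and that of *Myl7* -0.0446.

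Loss of *Gata6* gave no member past the threshold either (0 of 7, and 0% of all probesets, by limma), and 1 of 7, *Kcnj3*, had an unadjusted p under 0.05 (0.00451), as did 4.91% of all probesets. *Kcnj3* differed by -0.52 (SE 0.14, 95% interval -0.83 to -0.20, adjusted p = 0.753), with all 3 deleted hearts below both floxed hearts. It was the 1 member of 7 whose groups did not overlap, a split that 19.1% of all probesets had. *Sln* differed by -0.34 (SE 0.22), *Myl7* by -0.22 (SE 0.37), *Myl4* by -0.16 (SE 0.33) and *Dkk3* by -0.11 (SE 0.16), each with an adjusted p of 0.999. Without *Gata6* floxed heart 1 these were -0.12 for *Sln*, -0.0547 for *Myl7*, 0.18 for *Myl4* and -0.0045 for *Dkk3*. Without *Gata6* floxed heart 2, the array that stood apart, they were instead more negative. They were then -0.57 for *Sln*, -0.49 for *Myl4* and -0.23 for *Dkk3*, and that of *Myl7* was also more negative than with all hearts. Both remaining differences also turned on single floxed hearts. *Bmp10* differed by -0.70 (SE 0.51), by 0.42 without *Gata6* floxed heart 1 and by -1.82 without *Gata6* floxed heart 2. *Kcnj5* differed by -0.25 (SE 0.12) and by only -0.03 without *Gata6* floxed heart 2. *Kcnj3* moved less, to -0.47 and -0.57 when either floxed heart was left out.

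The difference between the change with loss of *Gata4* and the change with loss of *Gata6* passed for no member (limma interaction term, 0 of 7, where 0.0169% of all probesets passed), and 0 of 7 had an unadjusted p under 0.05, which 6.25% of all probesets had. In the direct comparison of *Gata4*-deleted with *Gata6*-deleted hearts 0 of 7 members and 1.08% of all probesets passed, and 0 of 7 and 11.7% had an unadjusted p under 0.05. Their member differences ran from -0.49 for *Myl7* (SE 0.33, adjusted p = 0.639) to 0.17 for *Kcnj3* (SE 0.13, adjusted p = 0.682). *Kcnj5* was the 1 member of 7 that did not overlap there, higher in *Gata4*-deleted hearts by 0.09 (SE 0.10), and 18.1% of all probesets did not overlap.

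The cre hearts gave a further comparison among controls. Cre hearts lay below all 4 floxed hearts in *Myl4*, *Myl7* and *Sln* (3 of 7 members, and 15.8% of all probesets in either direction), by -0.71 (SE 0.32, adjusted p = 0.597), -0.58 (SE 0.35, adjusted p = 0.737) and -0.61 (SE 0.21, adjusted p = 0.461). *Kcnj3* differed by -0.15 (SE 0.13) there. No member passed the threshold (0 of 7 by limma, against 0.0956% of all probesets), and 2 of 7, *Sln* and *Myl4*, had an unadjusted p under 0.05 (0.0163 and 0.0488), against 8.33%. Between *Gata4* floxed and *Gata6* floxed hearts none passed (0 of 7, against 0.228%) or had an unadjusted p under 0.05 (0 of 7, against 10.3%), nor did any in a test for any difference among the 5 groups (F test added after the data were seen, adjusted p from 0.274 for *Kcnj3* to 0.886 for *Bmp10*, against 1.27% of all probesets).

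**Figure D2:**
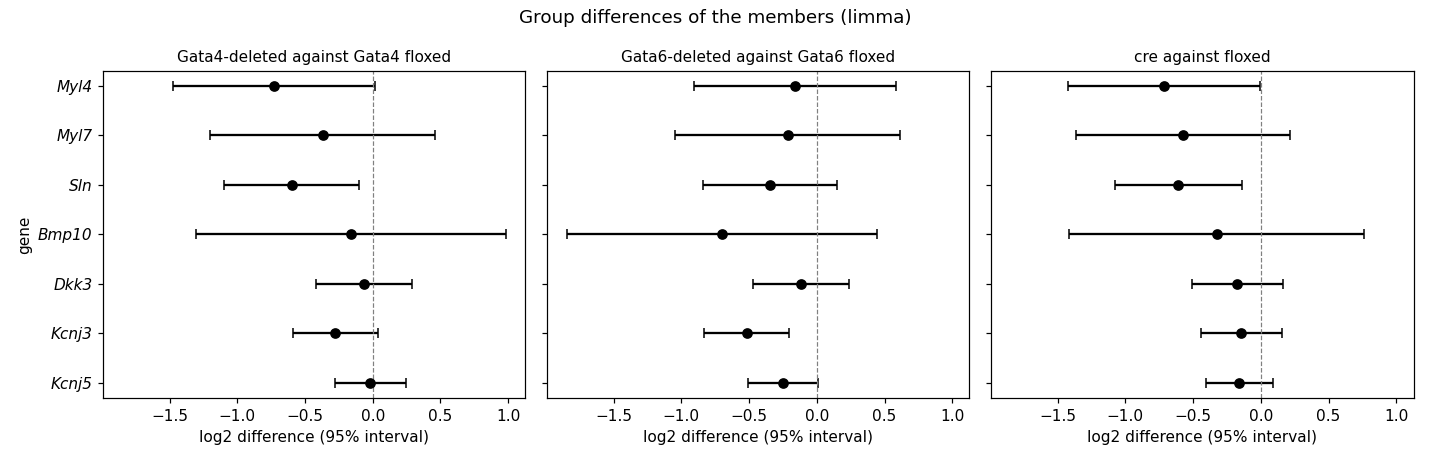
Difference in log2 signal (x axis, points) with its 95% interval (bars, limma) for each member (y axis) in 3 comparisons; the dashed line marks no difference. All 21 points lie below 0, most intervals cross it, and the interval of *Bmp10* is the widest in each panel.

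All 7 members had a negative difference in both deletions and in cre against floxed hearts, with medians of -0.28, -0.25 and -0.33 against medians over all probesets of 0.003, 0.002 and 0.01. The cre comparison shares its floxed hearts with the deletions, and the sign followed the choice of control. With the cre hearts as the control instead, 2 of 7 members were lower in *Gata4*-deleted and 3 of 7 in *Gata6*-deleted hearts, with medians of 0.04 and 0.01. *Myl4* was then 0.15 higher with loss of *Gata4* and 0.39 higher with loss of *Gata6*, whereas *Kcnj3* remained lower, by -0.17 and -0.33 (adjusted p = 0.728 and 0.437).

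Each member was next set against its own median over the 12 hearts, to see whether the genes moved as a group in single hearts. In 7 of the 12 hearts at least 6 of the 7 members lay on the same side. All 7 were above in *Gata4* floxed heart 2, and 6 were above in *Gata4* floxed heart 1, *Gata4*-deleted heart 2 and *Gata6* floxed heart 1. All 7 were below in cre heart 2, and 6 were below in *Gata6*-deleted hearts 2 and 3. Over all probesets the share above its own median stayed between 47.2% and 55.5% in every heart. The 2 sides followed genotype in part. Hearts with at least 6 members above were floxed hearts without cre, except *Gata4*-deleted heart 2, and those with at least 6 below all carried cre. Hearts 1 and 3 of the *Gata4*-deleted group had 5 of 7 members below. Cre heart 1, *Gata6* floxed heart 2 and *Gata6*-deleted heart 1 were split 4 to 3.

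The size of the deviations showed that the group was not uniform. In *Gata4*-deleted heart 3 *Myl7* was at -0.96, *Myl4* at -0.73, *Kcnj3* at -0.43 and *Sln* at -0.26, yet *Dkk3* and *Kcnj5* were at 0.06 and 0.04. In *Gata6*-deleted heart 1 *Myl7* was at 0.82, *Myl4* at 0.53 and *Sln* at 0.34, while *Bmp10* and *Kcnj3* were at -0.43 and -0.42. *Kcnj3* and the light chains thus moved the same way in the first of these hearts and opposite ways in the second. *Gata6* floxed heart 1 was high in 6 of 7 members, with 0.56 for *Myl7*, 0.56 for *Sln*, 0.64 for *Myl4* and 1.71 for *Bmp10*, and its median deviation, 0.556, was the highest of the 12.

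**Figure D3:**
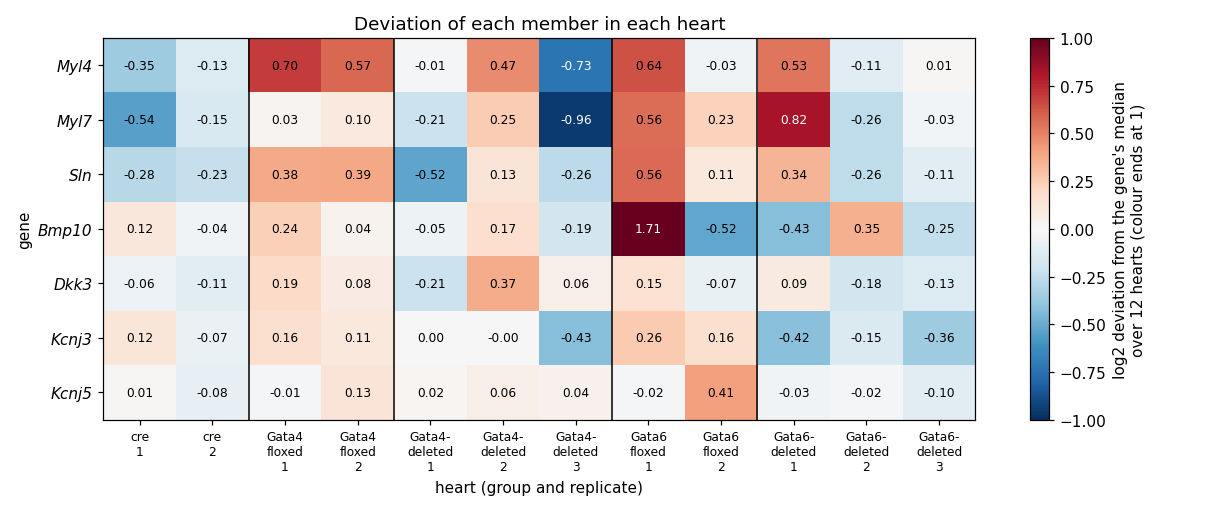
Deviation of each member (rows) in each heart (columns, grouped by genotype) from the gene's own median over the 12 hearts, in log2 units, as colour and number. The *Myl4*, *Myl7* and *Sln* rows mostly change colour together across the hearts, and the largest single deviation is 1.71 for *Bmp10* in *Gata6* floxed heart 1.

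Across the 12 hearts 3 of the 21 pairs of members were correlated after adjustment over the 21 pairs (permutation test, 100000 resamples, two-sided). These were *Myl4* with *Myl7* (Pearson r = 0.833, Spearman rho = 0.762, permutation p = 0.00053 for r and 0.00523 for rho, adjusted p = 0.0111 and 0.0366), *Myl4* with *Sln* (r = 0.828, rho = 0.846, permutation p = 0.00125 and 0.00094, adjusted p = 0.0131 and 0.0178) and *Myl7* with *Sln* (r = 0.739, rho = 0.825, permutation p = 0.00482 and 0.0017, adjusted p = 0.0337 and 0.0178). Without the 2 hearts farthest from the median of the first gene, r was 0.830, 0.860 and 0.799. The permutations shuffled hearts across genotypes, so these p-values do not separate genotype from heart. Among the deviations from the group means, r was 0.934 for *Myl4* with *Myl7*, 0.717 for *Myl4* with *Sln* and 0.712 for *Myl7* with *Sln*. These were not tested, and in groups of 2 hearts the deviations mirror each other, so they hold less information than 12 separate hearts. When each heart was left out in turn, r of these 3 pairs stayed between 0.686 and 0.903, and 2 to 5 of the 21 pairs passed, the 5 without *Gata4*-deleted heart 3.

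The other 18 pairs had r from -0.299 to 0.696, with a median of 0.313, and none passed. *Dkk3* was closest to *Sln*, with r = 0.696 (adjusted permutation p = 0.0676) over the 12 hearts and 0.931 within groups. The 2 subunits of the acetylcholine-gated channel had r = 0.390 over the hearts and -0.069 within groups. Pairs with *Kcnj3* had r from 0.193 to 0.511, and pairs with *Kcnj5* from -0.299 to 0.390. *Bmp10* and *Kcnj5* had r = -0.818 within groups, where the 2 *Gata6* floxed hearts carried the highest value of each gene, *Bmp10* in heart 1 and *Kcnj5* in heart 2.

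**Figure D4:**
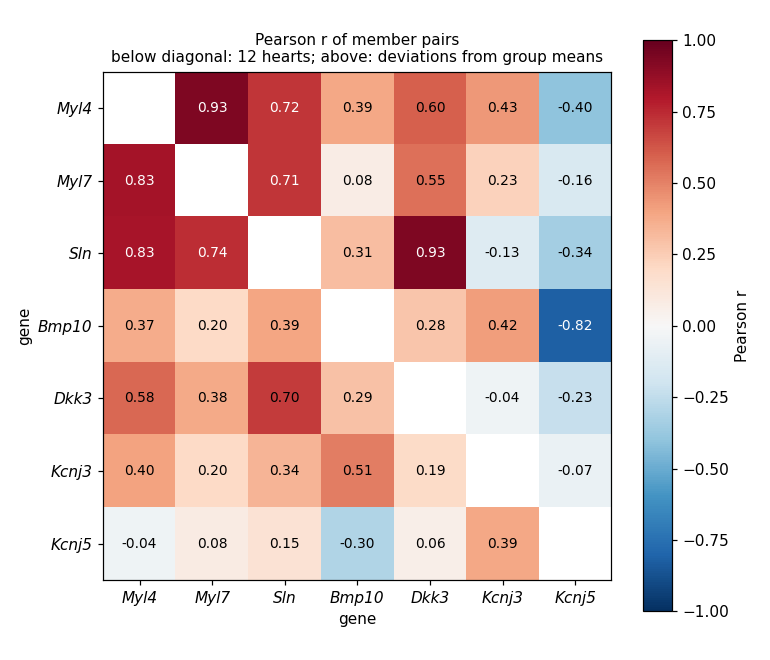
Pearson r of each pair of members (both axes list the genes), below the diagonal over the 12 hearts and above it for deviations from the group means. The block of *Myl4*, *Myl7* and *Sln* has r of at least 0.712 on both sides of the diagonal, and the row of *Kcnj5* has no such value.

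The genes most like the members were ranked by r over the 12 hearts among 728 other genes whose SD over the hearts was at least 0.3. These are descriptions, without a test, over hearts that share their arrays. *Mybphl*, which encodes a myosin-binding protein of the atrium and was also listed here among other atrial genes, came first for the mean of the 7 members (r = 0.782, and 0.809 within groups), followed by *Ube2v1* (0.741) and *Cpxm2* (0.704). It also came first for *Myl4* (0.897) and for *Sln* (0.821), and second for *Myl7* (0.743) behind *Rftn2* (0.747). At the other end were *Olfr323* (-0.723), *Map3k6* (-0.691) and *Retnla* (-0.667).

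The leading genes of the remaining members were different ones. For *Kcnj3* they were *Lrtm1* (0.822), *Bambi* (0.796) and *Sh2d4a* (0.769), and for *Dkk3* *Gabra3* (0.739), *Cnmd* (0.696) and *Iqgap2* (0.690). Those of *Bmp10* and *Kcnj5* rested on a single heart each. *Slc25a23*, first for *Bmp10* with r = 0.875, read 12.46 in *Gata6* floxed heart 1 and 8.05 to 8.68 in the others, and r was -0.12 without that heart. *Slc6a16*, first for *Kcnj5* with r = 0.854, read 5.47 in *Gata6* floxed heart 2 and 4.26 to 4.52 in the others, and r was -0.10 without it.

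*Mybphl* was then followed heart by heart beside the members, with *Nppa*, which encodes the atrial natriuretic peptide, and *Stard10*, a lipid transfer protein chosen after its values were seen. *Mybphl* read 5.83 and 5.79 in cre, 6.504 and 6.71 in *Gata4* floxed, 6.05, 6.18 and 5.68 in *Gata4*-deleted, 6.57 and 6.09 in *Gata6* floxed and 6.48, 6.02 and 6.38 in *Gata6*-deleted hearts. It was lowest in *Gata4*-deleted heart 3, as both light chains were. Its r with *Myl4* was 0.863 without the 2 hearts farthest from the median of *Myl4* and 0.851 within groups. *Stard10* had r of 0.810, 0.747 and 0.765 with *Myl4*, *Sln* and *Myl7* over the hearts and 0.791, 0.502 and 0.703 within groups. Since both genes stand here for their likeness to these members, these values are descriptions with no test.

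*Nppa* did not follow them. It read 11.12 and 11.53 in cre, 11.32 and 11.72 in *Gata4* floxed, 11.05, 11.22 and 11.46 in *Gata4*-deleted, 12.23 and 12.07 in *Gata6* floxed and 11.64, 11.94 and 12.17 in *Gata6*-deleted hearts. Of the 5 hearts of the *Gata6* line 4 lay above every other heart, all but *Gata6*-deleted heart 1, and the *Gata4*-deleted hearts lay below all *Gata6*-deleted hearts, by 0.67 (SE 0.18, limma, adjusted p = 0.141). Its r with the members ran from -0.149 to 0.407, and none of the 7 relations passed (permutation test, p adjusted over 21 relations computed, from 0.491 to 0.951).

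**Figure D5:**
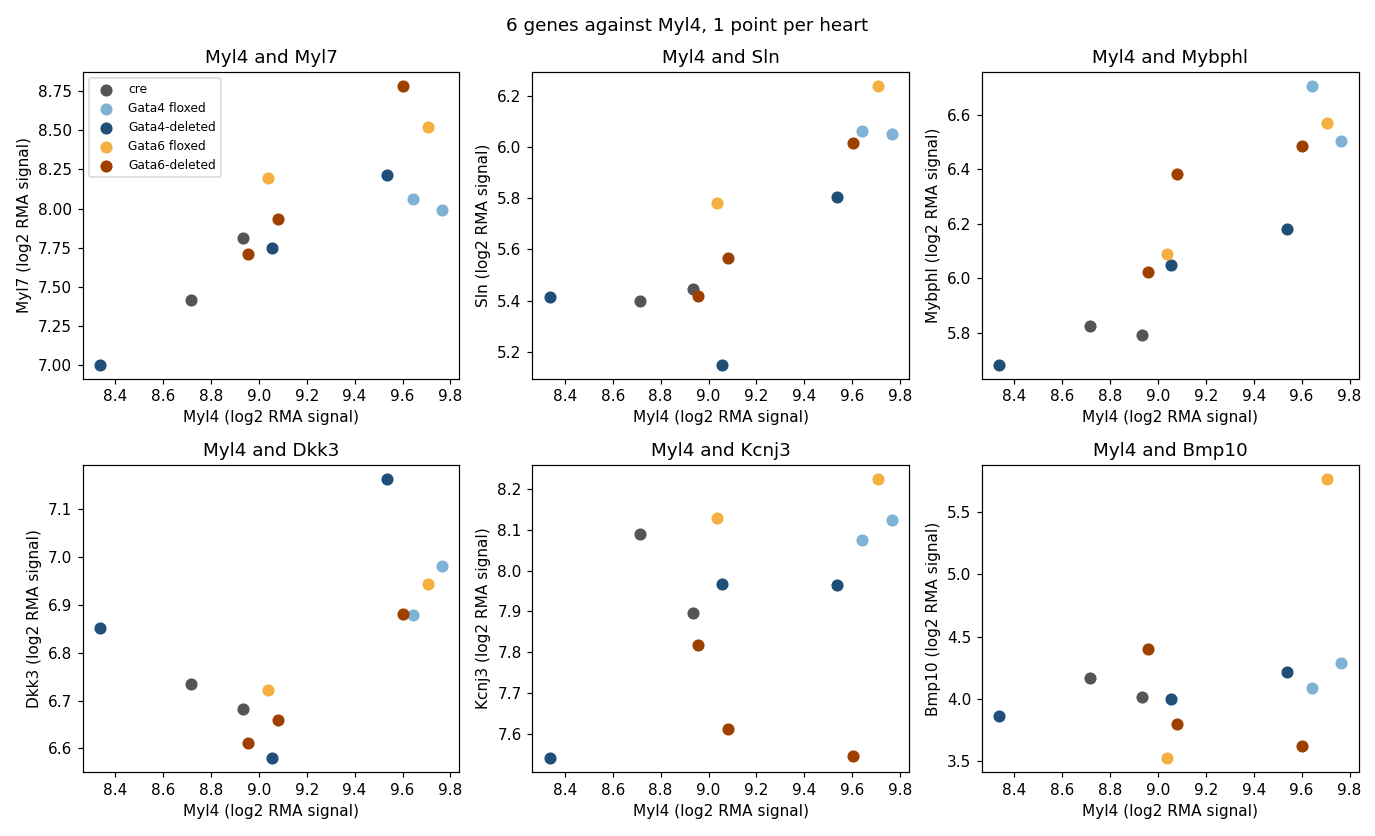
Log2 signal of 6 genes (y axes) against that of *Myl4* (x axes), 1 point per heart, coloured by group. *Myl7*, *Sln* and *Mybphl* rise with *Myl4* over the 12 hearts (r = 0.833, 0.828 and 0.897) and among deviations from the group means (0.934, 0.717 and 0.851). Not every group shows this: of the *Gata4* floxed hearts, the one with less *Myl4* had more of each of these genes. *Bmp10* and *Kcnj3* do not form such a line.

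The other atrial genes on the list gave no member past the threshold in either deletion or in cre against floxed hearts (0 of 9 measured in each). *Mybphl* differed by -0.63 (SE 0.19, limma, adjusted p = 0.305) with loss of *Gata4*, by -0.03 with loss of *Gata6* and by -0.66 (SE 0.18, adjusted p = 0.374) in cre against floxed hearts. *Stard10* differed by -0.35 (SE 0.11) with loss of *Gata4*. *Nr2f1*, also on the list, read 5.21 and 5.28 in *Gata4* floxed and 4.63, 4.94 and 4.75 in *Gata4*-deleted hearts. It went the other way in the *Gata6* line, at 4.76 and 4.88 in floxed and 5.07, 4.93 and 5.12 in deleted hearts. *Kcnk3*, a background potassium channel, *Cacna1d*, a calcium channel of atrial and nodal cells, and *Gja5*, the atrial connexin, differed by -0.20 (SE 0.09), -0.02 (SE 0.10) and 0.10 (SE 0.14) with loss of *Gata4*, with adjusted p from 0.547 to 0.975. The sinoatrial node genes likewise gave 0 of 5 in each of these comparisons, with *Hcn4*, the pacemaker channel, at -0.22 (SE 0.16) and 0.09 (SE 0.16) with loss of *Gata4* and of *Gata6*.

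Among the myosin light chains and their kinases, 0 of 10 passed in any of the 6 comparisons. *Myl2* stayed within 13.11 to 13.27 and *Myl3*, the ventricular essential chain, within 12.497 to 12.72 in all hearts, while the level of *Myl4* moved by 1.43 log2 units and that of *Myl7* by 1.78. The highest value of each array lay between 13.92 and 14.05, so the ventricular chains read near the top of the scale. Whether differences are compressed there was not tested. The SERCA pump and its small regulators gave 0 of 5 passing. *Atp2a2*, the cardiac pump, read 13.33 to 13.44, and *Pln*, phospholamban, the regulator related to sarcolipin, read 13.33 to 13.40, against 5.15 to 6.24 for *Sln*.

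Of the genes that act on the acetylcholine-gated channel 12 of 13 were measured, and none passed in either deletion. *Chrm2* read 10.45 to 10.80 over the hearts and differed by -0.13 (SE 0.09, limma, adjusted p = 0.745) with loss of *Gata4* and by -0.04 (SE 0.09, adjusted p = 0.999) with loss of *Gata6*. *Rgs6*, which shuts off the signal from the receptor, differed by 0.41 (SE 0.10, adjusted p = 0.160) and -0.16 (SE 0.10, adjusted p = 0.999). *Gnai1*, an inhibitory G protein subunit, was the 1 gene of the list that differed in another comparison, by 0.48 between the deleted groups (*Gata4*-deleted minus *Gata6*-deleted, SE 0.08, adjusted p = 0.0184). The floxed groups differed by 0.40 in the same direction (SE 0.09, adjusted p = 0.153), and the difference between the 2 deletions was 0.08 (SE 0.12, adjusted p = 0.975). The other GIRK subunits, *Kcnj6* and *Kcnj9*, stayed at 3.69 to 4.11 and 5.16 to 5.40.

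Of the genes of BMP10 signalling all 14 were measured and none passed in the comparisons of either deletion or of the cre hearts. *Id3*, a target of the pathway, differed by 0.41 (SE 0.11, limma, adjusted p = 0.226) with loss of *Gata4*, and the receptor *Acvrl1* stayed within 7.92 to 8.10. *Smad7*, an inhibitor that the pathway induces, read 7.22 in *Gata6* floxed heart 1, the heart with the high *Bmp10* value, within its range of 7.05 to 7.81. *Id1*, also on the list, read 8.02 in that heart, toward the top of its range of 7.34 to 8.17. With loss of *Gata4* it had the largest positive difference of the list, 0.46. The Dickkopf family and its receptors gave 0 of 8 in either deletion.

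The share of atrial tissue in each heart was not recorded in the labels, and in RNA of whole hearts fewer cells of a type and less RNA per cell cannot be told apart. Of the lists that mark other parts of the heart, ventricular genes varied in summed level by 0.096 log2 units over the hearts and general cardiomyocyte genes by 0.116, and their r with the mean of *Myl4*, *Myl7* and *Sln* was 0.289 and 0.031. These sums are carried by the brightest genes, such as *Myl2*, and dimmer ventricular genes varied more, *Hey2* from 5.42 to 6.58 and *Kcnip2* from 9.04 to 10.17. None of the 8 ventricular genes passed in either deletion or in the difference between the deletions. Between the deleted groups 3 of 8 passed, where 1.08% of all probesets did: *Hey2* by 0.79, *Irx5* by -0.72 and *Kcnip2* by -0.80 (limma, adjusted p = 0.0130, 0.0195 and 0.0246). The study had itself listed these 3 genes, from the same arrays, as differing between the deletions. The list here was chosen with earlier results known, so this count is a description and not a test of ventricular genes. Between the floxed groups these genes differed by 0.50, -0.0341 and -0.27. In cre against floxed hearts all 10 of the cardiomyocyte genes had a positive but small difference, from 0.004 to 0.097, with a median of 0.03. The median over all probesets was 0.01. All 7 members had a negative difference, from -0.71 to -0.15, and no gene of either list passed. Skeletal muscle, lung, thymus and mesothelium lists varied in summed level by 0.146 to 0.272, with r from -0.502 to -0.145 with that mean over the hearts. The adipose list and the 2 measured red blood cell genes had r of 0.205 and 0.388.

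Smooth muscle genes varied more, with a summed level of 11.001 to 11.46 in cre, 11.02 to 11.03 in *Gata4* floxed, 11.82 to 11.96 in *Gata4*-deleted, 11.16 to 11.31 in *Gata6* floxed and 11.41 to 12.002 in *Gata6*-deleted hearts. No gene of the list passed in either deletion. With loss of *Gata4* *Acta2*, smooth muscle actin, differed by 1.34 (SE 0.22, limma, adjusted p = 0.0601) and the other 5 by -0.18 to -0.02. With loss of *Gata6* 5 of 6 had a positive difference, with a median of 0.39, *Acta2* at 0.58 (SE 0.22, adjusted p = 0.991) and *Tagln* at 0.44 (SE 0.20, adjusted p = 0.999). Among deviations from the group means, 9 of the 121 other genes on the 16 lists had r over 0.7 with the mean of *Myl4*, *Myl7* and *Sln*, and they came from several lists. They were *Rgs4* (0.902), *Tagln* (0.849), *Mybphl* (0.839), *Myh11* (0.808), the mesothelial *Upk3b* (0.799), *Id3* (0.771), *Smtn* (0.752), *Hey2* (0.740) and *Stard10* (0.734). Of these 9, 2 also had r over 0.7 over the 12 hearts, *Mybphl* (0.878) and *Stard10* (0.832). The share of all probesets with such an r was not computed, so these counts are descriptions and do not set the listed genes apart. The part of other cell types or of atrial tissue in the movement of the 3 genes was not tested.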

How the data were processed

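Affymetrix gene ST arrays for the mouse were run on total RNA of 12 whole hearts, 1 heart each. Per the labels, the authors made the deposited log2 values with RMA, which corrects background, normalizes between arrays and summarizes probes per probeset (its version is not given in the sources used here). A second deposited table of relative expression, whose columns could not be assigned to hearts from the labels, was not used. Groups came from the labels.

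Gene symbols came from the platform's probe table, which listed 23410 of the 35557 probesets, 21789 of them with 1 symbol. A gene was read from its brightest probeset. All probesets were fitted in a model of 5 group means with limma 3.58.1 in R 4.3.3 (7 residual and 2.50 prior degrees of freedom), which assumes 1 spread for all groups. Fits were tested on simulated data. Correlations were computed with scipy 1.17.1. RMA and normalization between arrays can shrink differences of dim probesets such as that of *Bmp10*, and the number of arrays limits the precision. The p-values measure the spread between these hearts.

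The members, the 16 gene lists and the tests were chosen with earlier results of these data known. *Stard10* was chosen after its values were seen. Genes with the highest r with the mean of the 7 members or with 1 member, and the lowest with the mean, were named by a rule. The genes named from the lists were picked and are not always those at the ends of a list. Alternatives were another normalization, removal of dim probesets, a block for the replicate number, only the compared groups, other controls, another prior, the methods' t-test, the mean over probesets, other thresholds and each heart left out.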

Additional observations from a re-analysis of the deposited data

How the results depend on the processing

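No member passed an adjusted p under 0.05 in any comparison under any alternative run, and the lowest adjusted p of a member was 0.154, for *Bmp10* between the floxed groups without *Gata6* floxed replicate 2. Under alternatives with all hearts 338 member differences kept their sign and 13 reversed it, and without 1 heart 481 and 23. Many could not reverse, as their group means stayed the same. At an unadjusted p under 0.05, 1 member passed with loss of *Gata4*, 1 with loss of *Gata6* and 2 in cre against floxed hearts. By the methods' t-test without adjustment 1 member passed with loss of *Gata6*, 1 between the deleted groups and 1 in cre against floxed hearts. Of all 35557 probesets, 1643, 3771 and 2211 passed there, in this order. No member passed by this t-test after adjustment. With cre hearts as the control, the signs with loss of *Gata4* reversed for *Myl4* (0.15), *Myl7* (0.0401), *Sln* (0.0329), *Dkk3* (0.16) and *Kcnj5* (0.0742), and with loss of *Gata6* for *Myl4* (0.39), *Myl7* (0.53), *Sln* (0.24) and *Dkk3* (0.00885). With the mean of the 3 control groups, *Dkk3* reversed with loss of *Gata4* (0.0411) and *Myl7* with loss of *Gata6* (0.14). Quantile normalization reversed *Kcnj5* with loss of *Gata4* (0.00326). The causes were not tested.

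Same-numbered hearts did not deviate together (median r -0.002, from -0.097 to 0.109), so the numbers do not pair the hearts. With a replicate block 0 members passed, the *Myl4* difference with loss of *Gata6* was 0.0346, and 14 probesets passed with loss of *Gata4* in place of 65, 0 in the difference between the deletions in place of 6, 234 between the deleted groups in place of 384, 4 in cre against floxed hearts in place of 34 and 35 between the floxed groups in place of 81.

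Leaving out each heart in turn, the differences with a reversed sign ranged with loss of *Gata4* from -0.21 to 0.0772 for *Dkk3* and from -0.0884 to 0.0544 for *Kcnj5*, and with loss of *Gata6* from -1.82 to 0.42 for *Bmp10*, from -0.49 to 0.18 for *Myl4* and from -0.54 to 0.00111 for *Myl7*. In the difference between the deletions they ranged from -0.58 to 1.66 for *Bmp10*, from -0.10 to 0.19 for *Dkk3* and from -0.44 to 0.17 for *Myl7*, and between the deleted groups from -0.0758 to 0.31 for *Bmp10*, from -0.00181 to 0.29 for *Dkk3* and from -0.52 to 0.0837 for *Myl4*. *Bmp10* ranged from -0.89 to 0.23 in cre against floxed hearts. Between the floxed groups they ranged from -1.58 to 0.66 for *Bmp10*, from -0.0132 to 0.21 for *Dkk3*, from -0.35 to 0.0808 for *Kcnj5*, from -0.00321 to 0.67 for *Myl4* and from -0.18 to 0.27 for *Sln*. The pairs of members that passed ranged from 2 to 5.

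The count of all probesets past the threshold depended on the fit. With loss of *Gata4* it was 65, against 243 with dim probesets removed, 9 with only the compared groups, 161 with another prior, 232 over gene means, 170 at an adjusted p under 0.1 and 0 by the methods' t-test after adjustment. With loss of *Gata6* it was 0 under those settings, 62 without *Gata6* floxed replicate 1 and 55 without *Gata6*-deleted replicate 1. Leaving out 1 heart also took the count with loss of *Gata4* as low as 10 (without *Gata4* floxed replicate 1), between the floxed groups from 21 (without *Gata4* floxed replicate 2) to 383 (without *Gata6* floxed replicate 1), in the difference between the deletions to 63 and in cre against floxed hearts to 112 (both without *Gata6*-deleted replicate 1), and between the deleted groups down to 190 (without *Gata4*-deleted replicate 3). With cre hearts or the mean of the 3 control groups as the control it was 139 and 295 with loss of *Gata4* and 183 and 142 with loss of *Gata6*. With dim probesets removed, with only the compared groups, with another prior and over gene means it was 601, 98, 506 and 437 between the deleted groups (384 as reported), 67, 23, 58 and 48 in cre against floxed hearts (34) and 201, 13, 138 and 179 between the floxed groups (81), and in the difference between the deletions 5, 0, 7 and 11 (6). *Myl7* with loss of *Gata4* ranged from -0.65 to -0.0446 when 1 heart was left out. Groups of 2 or 3 hearts leave intervals that are wide for *Myl4*, *Myl7* and *Bmp10*, and the *Bmp10* probeset lay below the array median in all but 1 heart, where the filter on dim probesets removed it.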
